A study of Mus musculus with 21 samples.

Results

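The LIF receptor, STAT3 and their immediate target genes were followed through all 21 libraries of the series, as 9 genes of the 31053 in the deposited tables. They were taken by gene symbol, as the mouse Ensembl IDs that GENCODE M21 names Lifr, Il6st, Jak1, Stat3, Socs3, Socs2, Pim1, Pim3 and Bcl3. Each of the 9 had exactly one row, and each passed the filter on low counts. The series is mRNA sequencing of E14Tg2a, an established line of male mouse embryonic stem cells (129 background), here with GFPd2 knocked in at one Rex1 (Zfp42) allele. Cells were analysed at zero passage, and after 1 or 2 months of culture in several media.

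The libraries form 7 groups of 3, and every label includes LIF, so no group is labelled as lacking the cytokine. The groups are labelled 2i+LIF PO, 2i+LIF LP, CH+LIF LP, LIF LP, 2i+LIF HP, CH+LIF HP and LIF HP. In this field 2i stands for CHIR99021, a GSK3 inhibitor, with PD0325901, a MEK inhibitor, and CH was read as CHIR99021 alone. One growth text was given for all groups, with a week in NDiff227 medium with both inhibitors (CHIR99021 at 3 uM) and then alternating supply and withdrawal of CH, PD and LIF. The labels therefore do not show whether LIF was present throughout or when cells were collected. PO was read as zero passage, and the labels do not say which of LP and HP was cultured longer. The PO libraries carry another sequencing run name than the other 18, so run and PO cannot be told apart. Nothing in the labels says that replicates were separate cultures, so p-values measure only the spread between these libraries, which may be technical.

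LIF, a cytokine of the interleukin-6 family, binds LIFR, which pairs with gp130 (encoded by Il6st), and the receptor-bound kinase JAK1 phosphorylates STAT3. STAT3 then enters the nucleus and switches on target genes, among them SOCS3, which feeds back to block the receptor complex. In mouse embryonic stem cells this pathway sustains self-renewal, alone with serum factors or beside the inhibitors of 2i.

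Libraries held 1132126 to 3783043 reads counted to genes (median 1763531), and levels are given as CPM, counts per 1e6 of the TMM-scaled library size. All 9 embryonic stem cell markers were detected in every group, but their summed level was 865 to 1310 CPM in 2i+LIF HP against 1780 to 3560 CPM elsewhere, and markers of fibroblasts, primitive endoderm, trophoblast, neural progenitors, mesendoderm and 2-cell-like cells each summed to at most 173 CPM (the trophoblast marker Elf5 was at 0 in all libraries). However, 2 libraries stood apart from their replicates: 2i+LIF PO replicate 1, with 39.1% of its counts mitochondrial, and 2i+LIF LP replicate 1, with 31.7% of its counts on Gm42418 (a non-coding gene). The shallowest library, 2i+LIF HP replicate 3, correlated with its replicates about as they did (mean r of 0.883 beside 0.893 and 0.900), but was low in several of the 9 genes, with a log2 difference from the mean of the other 2 of -2.95 for Stat3, -2.68 for Socs3 and -3.17 for Pim3. It is grouped with the other 2 as 3 doubted libraries, a choice made after those low values were seen. All values without them, adjusted p and calls included, are therefore a description. The fit takes its spread from all groups, so leaving them out also moves adjusted p in contrasts that hold none of them. Dusp6, a target of the MEK and ERK kinases, went against some labels. It was at 0 to 1.23 CPM in LIF HP, a group labelled without the MEK inhibitor, and at 34.4 and 26.3 CPM in 2i+LIF LP replicates 2 and 3, which are labelled with it. In 2i+LIF LP replicate 1 it was at 0.701 CPM. Spry4, another target of these kinases, was at 0 CPM in all 3 LIF HP libraries and at 2.8, 17.7 and 6.71 CPM in 2i+LIF LP replicates 1, 2 and 3. Leaving out the doubted libraries keeps for 2i+LIF LP the pair with high Dusp6. Whether libraries were exchanged was not tested, so groups are named as labelled throughout, and every direction that involves LIF HP or 2i+LIF LP is that of the libraries so labelled.

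Over the 7 groups, 3 of the 9 genes differed: Socs3 (adjusted p = 0.0187), Lifr (adjusted p = 0.0194) and Socs2 (adjusted p = 0.0305, edgeR quasi-likelihood test, Benjamini-Hochberg over the 10643 genes tested). Of all genes tested, 22.6% passed the same test. Over the 6 cultured groups alone the same 3 genes passed, with adjusted p = 0.0423 for Socs3, 0.039 for Lifr and 0.0324 for Socs2, and 13.1% of all genes did. Single libraries decided some of these calls. Over the 7 groups, Lifr was lost without LIF HP replicate 2 (adjusted p = 0.0589) or 3 (0.0585) and Socs3 without 2i+LIF HP replicate 2 (0.0581). Socs2 was lost without CH+LIF LP replicate 1 (0.0652), 2i+LIF HP replicate 2 (0.05) or any LIF HP library (0.0534 to 0.0702). Over the cultured groups, the Lifr call ended without any 1 library of LIF LP or LIF HP, 2i+LIF HP replicate 2 or 3, or CH+LIF HP replicate 1 (adjusted p up to 0.113). That of Socs3 ended without CH+LIF LP 1 or 2, LIF LP 1 or 3, 2i+LIF HP 2 or 3, CH+LIF HP 1 or 2, or any LIF HP library (up to 0.124). That of Socs2 ended without CH+LIF LP 1, LIF LP 2 or 3, 2i+LIF HP 2 or 3, or any LIF HP library (up to 0.0839, edgeR). Without the 3 doubted libraries 5 of the 9 genes passed each test, and 35.2% and 23.7% of all genes did. In 15 contrasts between groups, 7 of the 135 gene and contrast pairs passed, where 5.03% of all gene and contrast pairs did. In bulk RNA, fewer cells that express a gene and less of its RNA per cell cannot be told apart.

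**Figure D1:**
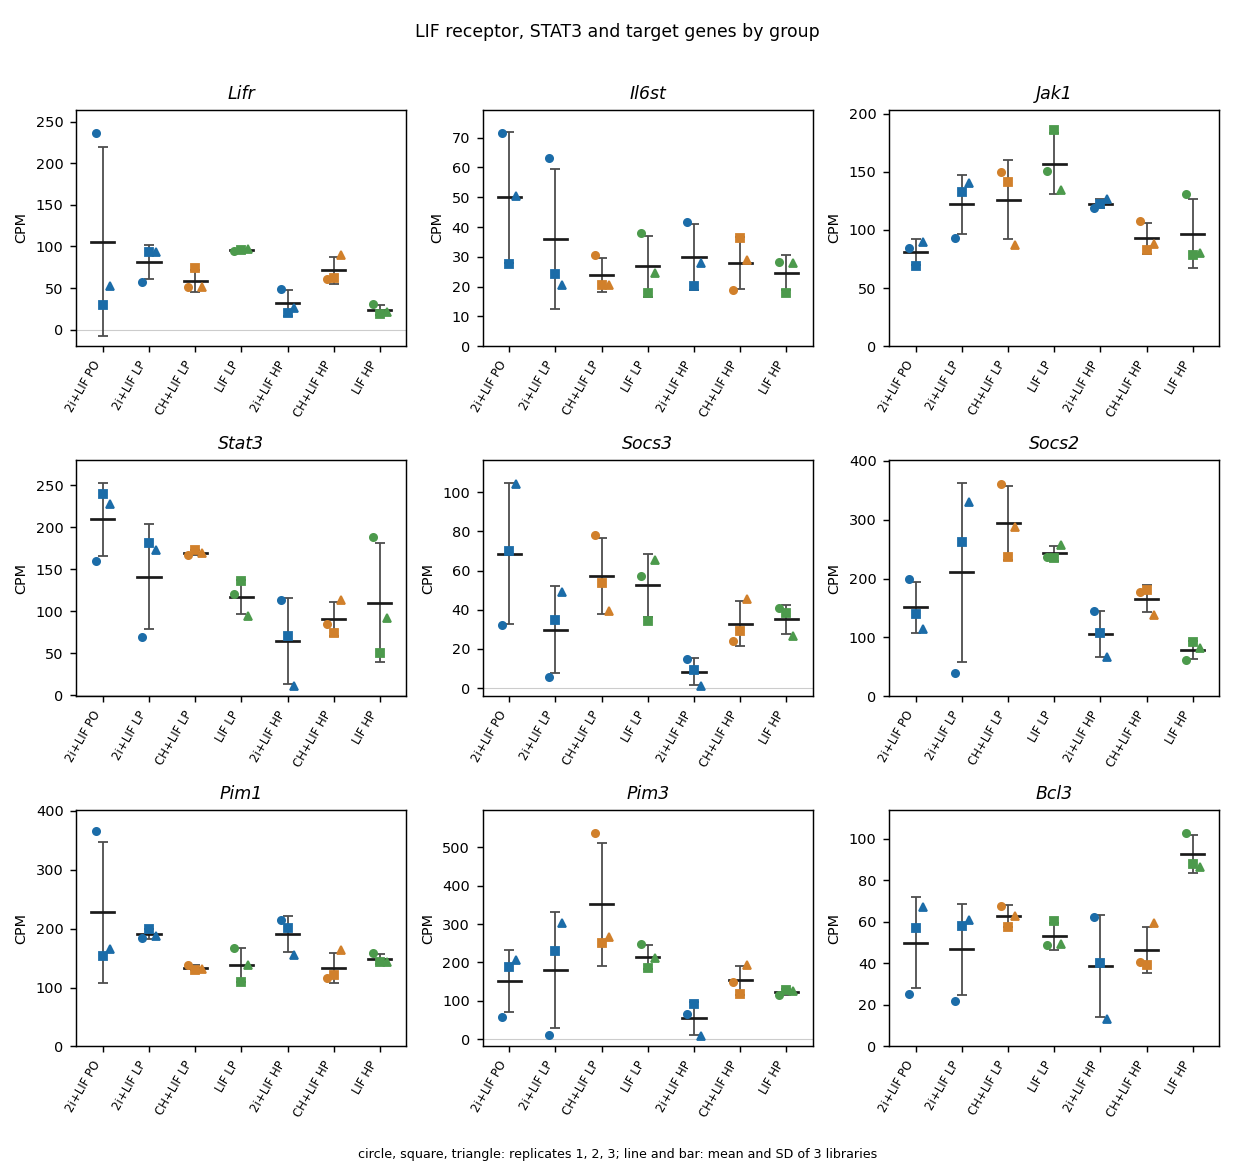
Level of each of the 9 genes in CPM (vertical axis, linear) in the 7 groups (horizontal axis), with blue for 2i+LIF, orange for CH+LIF and green for LIF. Points are libraries, with the mean and SD of 3. Lifr and Socs2 are low in LIF HP, Socs3 is low in 2i+LIF HP, and Bcl3 is highest in LIF HP, where all 3 libraries lie above 86 CPM.

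The receptor gene Lifr (ENSMUSG00000054263, chr15:7090614-7197489, plus strand, GRCm38) was lowest in LIF HP, at 30.4, 18.5 and 21.6 CPM in replicates 1, 2 and 3. In LIF LP it was at 94.2, 96.3 and 97.2 CPM, the tightest of the 7 groups. The LIF HP and LIF LP libraries did not overlap, and the LIF HP mean was 0.245 times the LIF LP mean. Separation of this kind is common, since 20.1% of all genes were higher with no overlap in this contrast. The share lower with no overlap, and the shares in other contrasts, are not given. A lack of overlap is therefore only a description of the libraries, here and below. Lifr fell by 2.02 on the log2 scale from LIF LP to LIF HP (SE 0.52, adjusted p = 0.0158, edgeR), a contrast in which 9.96% of all genes passed. The call was lost without LIF HP replicate 2 (-1.89, adjusted p = 0.0814) or replicate 3 (-1.98, adjusted p = 0.0697). Without the 3 doubted libraries it was -2.02 with adjusted p = 8.51e-05. Other genes differed between these groups too. Dusp6 was at 15.3 to 47.1 CPM in LIF LP against 0 to 1.23 CPM in LIF HP. Summed trophoblast markers were at 35.9 to 72.7 CPM in LIF LP against 131 to 173 CPM in LIF HP, where 1 of 4 tested rose (Tfap2c, 1.70), and summed neural markers at 64 to 71.1 against 10.5 to 24.2 CPM, where 1 of 3 fell (Sox1, -2.82). Of 9 embryonic stem cell markers, 1 fell (Utf1, -4.55) and 0 rose. Their part in the Lifr and Socs2 results of this contrast was not tested.

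In the other cultured groups, Lifr was at 57.5, 93.9 and 92.8 CPM in 2i+LIF LP, and at 51.4, 73.8 and 50.9 CPM in CH+LIF LP. It was at 61, 62.5 and 89.9 CPM in CH+LIF HP and at 49.3, 19.6 and 25.9 CPM in 2i+LIF HP. So LIF HP and 2i+LIF HP overlapped at the low end, while every CH+LIF HP library lay above both. The LP to HP difference was 0.27 (95% interval -0.75 to 1.30) in CH+LIF and -1.35 (95% interval -2.40 to -0.31, adjusted p = 0.153, edgeR) in 2i+LIF. The difference of that change between LIF and CH+LIF was -2.29 (SE 0.72, adjusted p = 0.194, edgeR), so it did not pass, and 0.423% of all genes did. That test of the difference passed with the 3 libraries left out (-2.31, adjusted p = 0.00329, edgeR). None of these libraries is in the groups it compares, and the estimate hardly moved.

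The 2i+LIF PO libraries spread most for Lifr, at 236, 29.3 and 51.9 CPM. Replicate 1, the library with 39.1% mitochondrial counts, was 2.57 higher on the log2 scale than the mean of the other 2. Lifr was called lower than PO in LIF HP (-2.15, SE 0.53, adjusted p = 0.0106, edgeR, where 12.3% of genes passed) and in 2i+LIF HP (-1.72, SE 0.51, adjusted p = 0.0316, where 10.6% passed). Both calls ended without PO replicate 1, at -0.80 (adjusted p = 0.226) and -0.35 (adjusted p = 0.598, edgeR). Leaving out that library also turned the difference between LIF LP and PO from -0.13 (adjusted p = 0.889) to 1.24 (adjusted p = 0.0355, edgeR), so that Lifr was then called higher in LIF LP than in PO. For 2i+LIF LP against PO it turned from -0.36 (adjusted p = 0.715) to 1.01 (adjusted p = 0.0896), and to 1.20 without the 3 doubted libraries (adjusted p = 0.0337, edgeR). The call for LIF HP against PO also ended without LIF HP replicate 2 (-2.00, adjusted p = 0.0636), and that for 2i+LIF HP without 2i+LIF HP replicate 2 (-1.45, adjusted p = 0.131) or 3 (-1.59, adjusted p = 0.153). Fitting only the groups compared ended both as well (adjusted p = 0.0831 and 0.187), and limma-voom with sample quality weights gave -0.69 for 2i+LIF HP (adjusted p = 0.242). Leaving out the 3 doubted libraries gave -0.78 (adjusted p = 0.138) and -0.22 (adjusted p = 0.767, edgeR). The groups overlapped in both contrasts.

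Il6st (ENSMUSG00000021756, chr13:112464070-112510086, plus strand), the gene of the shared receptor chain gp130, was not called in any of the 15 contrasts. Its lowest library was LIF HP replicate 2 at 17.9 CPM and its highest PO replicate 1 at 71.7 CPM, with a median of 27.8 CPM over the 21. Group means ran from 49.9 ± 22 CPM (SD, n = 3) in PO to 23.9 ± 5.76 CPM in CH+LIF LP. Among the 6 cultured groups the adjusted p was 0.879 (edgeR), and in the LIF LP to HP contrast in which Lifr fell, Il6st had a log2 difference of -0.13.

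Jak1 (ENSMUSG00000028530, chr4:101152367-101265282, minus strand) encodes the receptor-bound kinase and overlaps Raver2 in the annotation, so reads in the shared stretch could not be assigned with certainty. It was at 84.4, 68.8 and 90 CPM in PO. In LIF LP it ranged from 134 CPM in replicate 3 to 186 CPM in replicate 2, with no overlap with PO. Jak1 rose by 0.95 on the log2 scale in LIF LP against PO (SE 0.31, adjusted p = 0.0443, edgeR), where 12% of all genes passed. The margin was small: leaving out any 1 of 12 libraries (all of PO, LIF LP and CH+LIF HP, and replicate 2 of 2i+LIF LP, CH+LIF LP and 2i+LIF HP) ended the call, with log2 values of 0.81 to 1.05 and adjusted p between 0.0513 and 0.178. It also ended with no filter on low counts (adjusted p = 0.133) and with only the groups compared (adjusted p = 0.0898, edgeR). It passed without the 3 doubted libraries (0.98, adjusted p = 0.0183). In the same contrast with all libraries, 4 of 9 embryonic stem cell markers fell and 0 rose (edgeR). Of the tested neural markers 2 of 3 rose (Sox1, 3.23, and Pax6, 6.46), and 1 of 4 trophoblast markers fell (Tfap2c, -1.15). Their part in the Jak1 result was not tested. The other 5 groups ranged from 78.8 to 150 CPM. No other of the 15 contrasts passed for Jak1 in edgeR with all 21 libraries and low counts filtered. The uncalled difference of LIF HP from LIF LP (-0.69) passed in edgeR with only the groups compared. It also passed in limma-voom with quality weights (adjusted p = 0.0236), where 25.8% of all genes did.

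Stat3 (ENSMUSG00000004040, chr11:100885098-100939540, minus strand, overlapping Stat5a) encodes the transcription factor of the pathway. In PO it was at 160, 240 and 228 CPM, against 113, 69.8 and 10.5 CPM in 2i+LIF HP, with no overlap. Stat3 fell by 1.68 on the log2 scale (SE 0.52, adjusted p = 0.0384, edgeR). Replicate 3 of 2i+LIF HP held the lowest Stat3 value of the series, and without it the difference was -1.20 (adjusted p = 0.177). Leaving out PO replicate 2 (-1.57, adjusted p = 0.0813), PO replicate 3 (-1.59, adjusted p = 0.0851) or 2i+LIF HP replicate 2 (-1.72, adjusted p = 0.0896) also ended the call, while with the 3 libraries left out together it was -1.35 (adjusted p = 0.0271, edgeR). With only the groups compared it was not called (adjusted p = 0.164). LIF HP was uneven, at 189, 49.9 and 91.7 CPM, whereas CH+LIF LP was the most even group, at 167, 173 and 169 CPM. Stat3 did not pass among the cultured groups (adjusted p = 0.351, edgeR).

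Socs3 (ENSMUSG00000053113, chr11:117966079-117970047, minus strand), the feedback inhibitor, had the widest span of group means among the 9, an 8.21-fold range. It was at 32.2, 69.8 and 104 CPM in PO and at 14.9, 9.27 and 0.958 CPM in 2i+LIF HP, where the 3 libraries held 32, 17 and 1 reads. All 3 lay below every PO library, and the 2i+LIF HP mean was 0.122 times the PO mean. Socs3 fell by 2.93 on the log2 scale from PO to 2i+LIF HP (SE 0.61, 95% interval -4.18 to -1.68, adjusted p = 0.00309, edgeR). This call passed under all 30 other settings tried, and it was -2.83 (adjusted p = 8.98e-05) with the 3 libraries left out. In the same contrast, 6 of 9 embryonic stem cell markers fell and 0 rose, while 2 of 4 tested trophoblast markers (Krt7 and Cdx2), 1 of 3 neural markers (Pax6) and 1 of 3 mesendoderm markers (T) rose (edgeR). The summed mesendoderm markers were at 24 to 49.1 CPM in 2i+LIF HP against 22.2 to 25.4 CPM in PO, and the summed 2-cell-like markers at 14.4 to 19.1 CPM against 0 to 2.64 CPM. Trophoblast sums overlapped (78.6 to 108 against 88.6 to 134 CPM), and neural sums were lower in 2i+LIF HP (4.91 to 12.5 against 17.3 to 28 CPM). The part of these markers in the Socs3, Stat3 and Lifr results of this contrast was not tested.

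In the other groups Socs3 was at 5.61, 34.9 and 49.2 CPM in 2i+LIF LP, at 78, 53.9 and 39.5 CPM in CH+LIF LP and at 57.3, 34.5 and 65.4 CPM in LIF LP. It was at 24, 29.1 and 45.7 CPM in CH+LIF HP and at 40.7, 38.2 and 26.8 CPM in LIF HP. Apart from 2i+LIF LP replicate 1, the library rich in Gm42418, each of these libraries exceeded the highest 2i+LIF HP library. At HP, Socs3 was 1.97 higher on the log2 scale in LIF than in 2i+LIF (SE 0.61, adjusted p = 0.0681) and 1.86 higher in CH+LIF than in 2i+LIF (SE 0.61, adjusted p = 0.141, edgeR). Neither passed in edgeR with all 21 libraries, low counts filtered and all groups fitted. The first passed under 8 of 30 other settings, among them DESeq2 (adjusted p = 0.0235), edgeR with no filter on low counts (0.00214), edgeR with only the groups compared (0.0317) and edgeR without the 3 doubted libraries (1.54, adjusted p = 0.0163). The second passed under 3, with no filter (adjusted p = 0.00595, edgeR), with 2i+LIF LP replicate 1 left out (0.0379) and with PO replicate 1 left out as well (0.0118).

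Socs3 was also the only member whose upstream window held the STAT-type palindrome TTCNNNGAA, and its stretch is shown for that reason. The 250 bases before each RefSeq transcript start were read from the GRCm38.p6 promoter table, which has 10 windows for 8 of the 9 genes. The palindrome, the same on both strands, was in 1 of the 10 (10%) and in 7.02% of all 32851 windows. The match reads TTCTTAGAA, and the stretch lies at chr11:117969452-117969616 on the minus strand, within the span that GENCODE M21 gives Socs3 but outside its exons. Capitals mark the palindrome and GC boxes (GGGCGG or CCGCCC, the 2 strands of one motif).

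Socs3: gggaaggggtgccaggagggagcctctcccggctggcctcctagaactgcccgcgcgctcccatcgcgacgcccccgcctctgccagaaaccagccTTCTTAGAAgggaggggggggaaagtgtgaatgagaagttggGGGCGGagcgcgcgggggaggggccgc

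Socs2 (ENSMUSG00000020027, chr10:95385362-95417180, minus strand), which encodes another suppressor of cytokine signalling, had its lowest group mean in LIF HP, like Lifr. It was at 236, 235 and 258 CPM in LIF LP and at 62.4, 93 and 82.4 CPM in LIF HP, a mean 0.326 times as high, with no overlap. Socs2 fell by 1.62 on the log2 scale (SE 0.47, adjusted p = 0.0278, edgeR). The call ended without any 1 of the 6 libraries compared, with log2 values of -1.51 to -1.78 and adjusted p of 0.0654 to 0.0847, while leaving out the 3 doubted libraries gave -1.63 (adjusted p = 6.02e-05).

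With all libraries its highest group was CH+LIF LP, at 360, 236 and 288 CPM, and its values were 178, 180 and 139 CPM in CH+LIF HP. PO was at 199, 140 and 115 CPM, and 2i+LIF HP averaged 107 ± 39.2 CPM (SD, n = 3). In 2i+LIF LP, replicate 1 was at 40 CPM beside 262 and 331 CPM in the other 2, so this group alone spanned nearly the whole range of the gene. Without replicate 1 the 2i+LIF LP mean was 297 CPM, above the CH+LIF LP mean of 295 CPM. Between its highest and lowest groups with all libraries, CH+LIF LP and LIF HP, which differ in both medium and passage, the LIF HP mean was 0.269 times as high (given without a test, since the pair was chosen as the extremes).

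The remaining members are target genes, and with all 21 libraries and low counts filtered none of them passed the tests over the groups or any of the 15 contrasts in edgeR. Pim1 (ENSMUSG00000024014, chr17:29490753-29496112, plus strand, overlapping Gm26885) encodes a serine/threonine kinase and was the steadiest of the 9. Its group means ranged 1.71-fold, from 133 ± 4.38 CPM (SD, n = 3) in CH+LIF LP to 228 ± 119 CPM in PO. PO replicate 1 was at 366 CPM, and the other 20 libraries lay between 110 and 215 CPM. Its adjusted p over the cultured groups was 0.54 (edgeR).

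Pim3 (ENSMUSG00000035828, chr15:88862186-88865726, plus strand), the gene of a related kinase, had the highest level of the members per length, a mean of 72.4 CPM per kilobase of exon over the 21 libraries, against 49.4 for Pim1 and 2.82 for Il6st, the lowest. It was at 536, 250 and 267 CPM in CH+LIF LP and at 64.6, 92.7 and 7.67 CPM in 2i+LIF HP. These groups, the extremes of its order and therefore given without a test, did not overlap, and the 2i+LIF HP mean was 0.157 times the CH+LIF LP mean. LIF HP held 115, 129 and 127 CPM, below all LIF LP libraries (248, 185 and 212 CPM), with a log2 difference of -0.80 (adjusted p = 0.492, edgeR). This passed without the 3 doubted libraries (-0.81, adjusted p = 0.0378) and with only the groups compared (adjusted p = 0.0134). Pim3 also passed over the 7 groups and over the cultured groups under 5 other settings each: no filter, without 2i+LIF LP replicate 1, with PO replicate 1 left out as well, without the 3 doubted libraries and limma-voom (adjusted p of 8e-07 to 0.00593 and of 5.11e-07 to 0.00627, against 0.111 and 0.114, edgeR). The same 5 called a negative Pim3 difference for 2i+LIF HP against LP of that medium (-1.71 to -2.24, beside an uncalled -1.70) and against PO (-1.34 to -1.98, beside an uncalled -1.44).

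Bcl3 (ENSMUSG00000053175, chr7:19808462-19822770, minus strand, overlapping Gm16174 and Gm16175) encodes a nuclear protein of the I-kappa-B family. It was highest in LIF HP, at 103, 88.1 and 86.5 CPM, all above the highest library of the other 6 groups, 67.8 CPM. Against LIF LP (49, 60.4 and 49.5 CPM) the log2 difference was 0.80 (95% interval -0.07 to 1.68, adjusted p = 0.234, edgeR), and against 2i+LIF HP (62.3, 40.3 and 13.4 CPM) it was 1.23 (95% interval 0.34 to 2.12, adjusted p = 0.108). Neither passed in edgeR with all 21 libraries, all groups fitted and low counts filtered. In the first of these contrasts 20.1% of all genes were higher with no overlap, so the separation is common there. With the 3 libraries left out, Bcl3 passed for LIF HP against LIF LP (0.79, adjusted p = 0.0261) and against CH+LIF HP (1.00, adjusted p = 0.0175, edgeR). Both also passed in edgeR with only the groups compared. Both passed too in limma-voom with quality weights, where 25.8% and 13.3% of all genes did. For LIF HP against 2i+LIF HP, Bcl3 passed with PO replicate 1 and 2i+LIF LP replicate 1 left out (1.20, adjusted p = 0.0153, edgeR) and in limma-voom with quality weights (1.30, adjusted p = 0.0183).

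**Figure D2:**
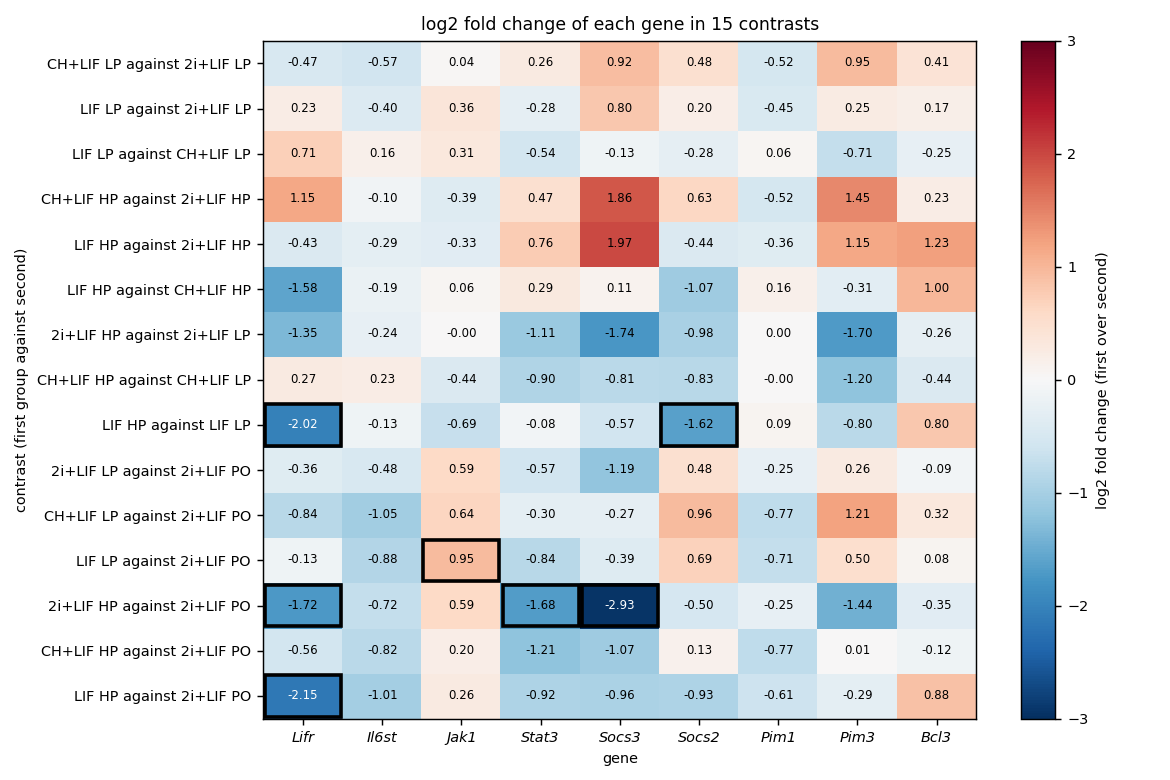
log2 fold change of each gene (columns) in the 15 contrasts (rows, first group over second), coloured from blue (lower in the first group) to red (higher), with black frames on the 7 pairs that passed at an adjusted p under 0.05 in edgeR. The framed pairs are Lifr (3), Socs2, Jak1, Stat3 and Socs3, and 6 of the 7 are lower in the first group.

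Among media at the same passage label, none of the 9 genes passed in the edgeR fit of all 21 libraries with low counts filtered. The background at LP was 0% for CH+LIF against 2i+LIF, 0.489% for LIF against 2i+LIF and 0.047% for LIF against CH+LIF, and at HP it was 2.02%, 3.78% and 1.47%. At LP, 0 of 27 gene and contrast pairs had an unadjusted p under 0.05, and DESeq2 and limma-voom called 0. At HP 8 of 27 did (3, 2 and 3 of the 9 in the contrasts in that order, beside 11.6%, 19.5% and 14.7% of all genes). There DESeq2 called 1 and limma-voom with sample quality weights called 5, beside 2.5% and 8.95% of all gene and contrast pairs. At HP edgeR called 7 of the 27 with PO replicate 1 and 2i+LIF LP replicate 1 left out and 4 with 2i+LIF HP replicate 3 left out as well, where 8.3% and 7.52% of all gene and contrast pairs passed, and at LP it called 0 both times. Of the changes from LP to HP, both calls came from LIF with all libraries. Without the 3 doubted libraries 8 passed, of which 4 were in 2i+LIF (Lifr, Pim3, Socs2 and Socs3) and 4 in LIF (Lifr, Socs2, Pim3 and Bcl3), where 3.78% and 23.6% of all genes passed. With all libraries, 0 of the 9 were called in 2i+LIF, where 3.67% of all genes were. Of the 9, 8 had a negative difference there, beside 49.5% of all genes, and 5 had an unadjusted p under 0.05, beside 17% of all genes. The median over the 9 was -0.98 there, beside 0.01 over all genes. In the same contrast 2 of 9 embryonic stem cell markers fell (Tdgf1, -3.41, and Utf1, -4.53) and 0 rose, 2 of 4 tested trophoblast markers rose (Krt7, 4.77, and Cdx2, 4.48), 1 of 3 mesendoderm markers rose (T, 4.21) and 1 of 3 neural markers fell (Sox1, -4.05, edgeR). Their part in the members' values was not tested. In CH+LIF the median was -0.44, beside 0.00 over all genes, with 0 of 9 called (0.0094% of all genes) and 0 under an unadjusted p of 0.05. In LIF it was -0.57, beside 0.01.

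None of the 3 tests of whether the LP to HP change differed between media passed for any member in edgeR with all 21 libraries and low counts filtered. There 2 of 27 had an unadjusted p under 0.05, both Lifr. DESeq2, run on all genes with counts, called 0. With quality weights, limma-voom called 2, where 3.42% of all gene and contrast pairs passed. Leaving out the 3 doubted libraries gave 1 call, Lifr in LIF against CH+LIF (-2.31, adjusted p = 0.00329, edgeR), where 4.81% of all genes passed. With all libraries, the shares at an unadjusted p under 0.05 over all genes were 6.49%, 11% and 11.7%. After adjustment, 0.0188%, 0.15% and 0.423% of all genes passed for CH+LIF against 2i+LIF, LIF against 2i+LIF and LIF against CH+LIF. Against PO, 3 of the 9 passed in 2i+LIF HP (Socs3, Stat3 and Lifr), where 10.6% of all genes did, with a median of -0.72 over the 9 beside -0.09 over all genes. In LIF HP 1 passed (Lifr, where 12.3% of all genes did), and in LIF LP 1 (Jak1, 12% of all genes). In 2i+LIF LP, CH+LIF LP and CH+LIF HP 0 passed in edgeR with all 21 libraries and low counts filtered, where 5.06%, 8.31% and 5.82% of all genes did. DESeq2 without that filter also called 0 there. In these 3 contrasts 1, 4 and 2 of the 9 had an unadjusted p under 0.05, beside 22.1%, 24% and 22.6% of all genes. With quality weights, limma-voom called 3, 1 and 2 of the 9, beside 18.1%, 21.8% and 26.8% of all genes. Without the 3 doubted libraries, edgeR called 14 of the 54 gene and contrast pairs against PO in place of 5, while the share over all genes went from 9% to 15.4%. Among them were Lifr and Socs2 in 2i+LIF LP, Socs2 in CH+LIF LP, and Socs3 and Stat3 in CH+LIF HP. The contrasts against PO share its 3 libraries.

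The order of the 7 group means also had few firm steps. Each gene has 6 pairs of neighbours in that order, and of the 54 pairs in all, 0 passed (edgeR), with the smallest adjusted p, 0.118, for Socs3 between 2i+LIF LP and 2i+LIF HP. PO had the highest mean for Lifr, Il6st, Stat3, Socs3 and Pim1, and CH+LIF LP for Socs2 and Pim3. For Lifr and Pim1 that rank rested on PO replicate 1, since the other 2 PO libraries (29.3 and 51.9 CPM for Lifr, at most 165 CPM for Pim1) lay below the LIF LP mean of 95.9 CPM and the 2i+LIF LP mean of 191 CPM. For Socs2 the rank of CH+LIF LP rested on 2i+LIF LP replicate 1 (40 CPM). Without it the 2i+LIF LP mean was 297 CPM, against 295 CPM in CH+LIF LP. 2i+LIF HP was the lowest for Stat3, Socs3, Pim3 and Bcl3, and LIF HP for Lifr and Socs2. For Stat3 and Bcl3 that rank rested on 2i+LIF HP replicate 3 (10.5 and 13.4 CPM), since the means of the other 2 libraries, 91.4 and 51.3 CPM, lay above the CH+LIF HP means of 90.8 and 46.5 CPM.

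Much of the spread within groups came from a few libraries in which several members moved together. In 2i+LIF HP replicate 3, the log2 difference from the mean of the other 2 libraries was -2.95 for Stat3, -2.68 for Socs3, -3.17 for Pim3 and -1.82 for Bcl3, while it was -0.26 for Lifr, -0.06 for Il6st and 0.07 for Jak1. In 2i+LIF LP replicate 1, the log2 difference was -4.52 for Pim3, -2.85 for Socs2, -2.67 for Socs3, -1.41 for Bcl3 and -1.34 for Stat3, and 1.46 for Il6st. In PO replicate 1, it was -1.72 for Pim3, -1.38 for Socs3 and -1.26 for Bcl3, and 2.57 for Lifr and 1.20 for Pim1. So the low value of Socs3, Pim3 and Bcl3 recurred in these 3 libraries, each in another group. In the other 4 groups no member differed from its replicates by more than 1.47, which was Stat3 in LIF HP replicate 1.

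The transcripts of Socs3, Pim3 and Bcl3 are rich in G and C, at 58.7%, 61.9% and 62.6%, above 93.1%, 98.4% and 98.9% of the genes tested, whereas Socs2 has 45.4%. In 2i+LIF HP replicate 3, 2i+LIF LP replicate 1 and PO replicate 1, the median of the 1064 GC-richest genes differed by -0.14, -0.06 and -0.36 on the log2 scale, and that of the 1064 GC-poorest by 0.04, -0.64 and 0.30. The part of GC content, mitochondrial counts or depth in these differences was not tested.

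**Figure D3:**
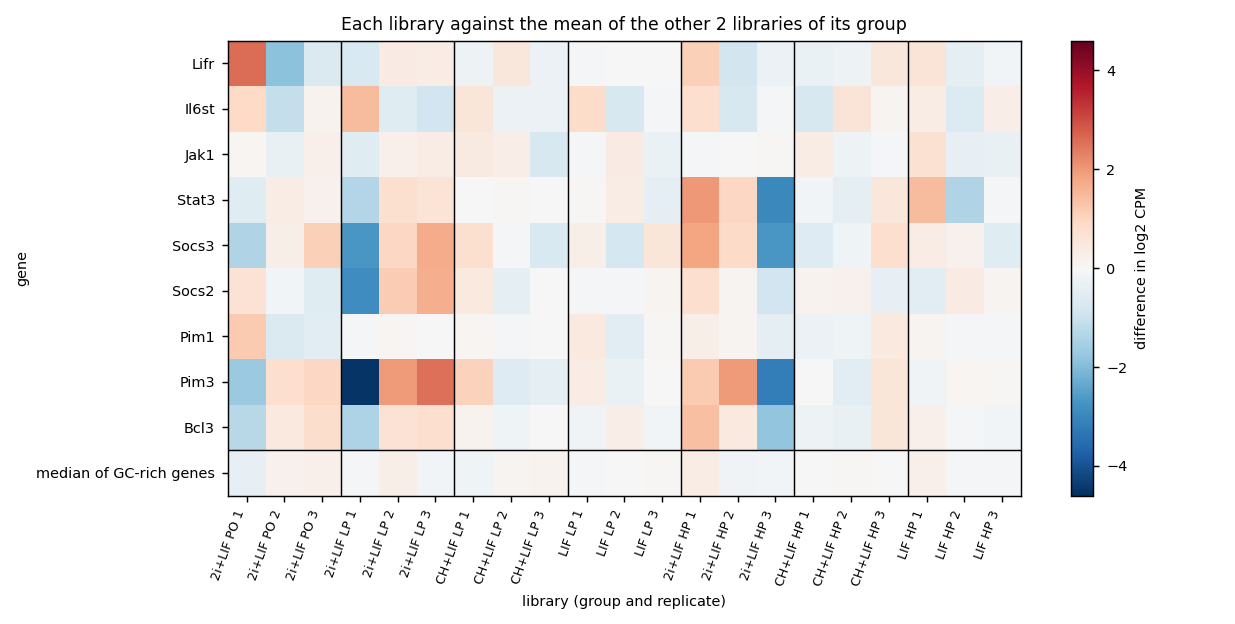
Difference in log2 CPM between each library (columns, by group and replicate) and the mean of the other 2 libraries of its group, for the 9 genes and for the median of the 1064 GC-richest genes (bottom row), from blue (lower) to red (higher). Socs3, Pim3 and Bcl3 are low together in 2i+LIF PO 1, 2i+LIF LP 1 and 2i+LIF HP 3, where the bottom row stays between -0.36 and -0.06.

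Because Pim3 and Bcl3 were low in the same 3 libraries as Socs3, and Stat3 in 2i+LIF LP 1 and 2i+LIF HP 3, their upstream stretches are given for comparison. None of the 3 held TTCNNNGAA in the window read, and all held GC boxes, marked in capitals, as 8 of the 10 member windows (80%) did against 32.7% of all windows. They lie at chr15:88861944-88862185 (plus strand) for Pim3, chr7:19822771-19823005 (minus) for Bcl3 and chr11:100939541-100939790 (minus) for Stat3, in GRCm38.p6 from RefSeq.

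Pim3: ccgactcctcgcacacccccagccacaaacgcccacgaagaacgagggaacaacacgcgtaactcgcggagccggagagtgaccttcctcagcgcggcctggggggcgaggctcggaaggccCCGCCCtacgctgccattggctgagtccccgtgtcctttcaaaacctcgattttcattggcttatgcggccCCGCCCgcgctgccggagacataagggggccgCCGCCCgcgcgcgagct
Bcl3: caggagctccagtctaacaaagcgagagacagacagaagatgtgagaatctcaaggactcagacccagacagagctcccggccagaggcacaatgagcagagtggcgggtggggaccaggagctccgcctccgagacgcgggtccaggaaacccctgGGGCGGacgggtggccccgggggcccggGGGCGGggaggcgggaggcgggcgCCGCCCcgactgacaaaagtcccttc
Stat3: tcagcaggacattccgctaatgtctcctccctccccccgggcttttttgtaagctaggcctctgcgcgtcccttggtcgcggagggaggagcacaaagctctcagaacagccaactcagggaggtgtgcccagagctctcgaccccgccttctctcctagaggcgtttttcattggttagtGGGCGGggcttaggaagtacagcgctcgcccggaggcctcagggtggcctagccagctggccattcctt

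The genes whose log2 CPM was most like Lifr, Socs2 and Socs3, the 3 members that passed over the 7 groups, across the 21 libraries are named as a description. For Lifr they were Cenpe (Pearson r = 0.905), Utrn (0.901) and Cep290 (0.898), and for Socs2 they were Cemip2 (0.897), Pla2g7 (0.869) and Spry2 (0.866). For Socs3 they were Tnfrsf10b (0.954), Thoc6 (0.911) and Kdelr3 (0.906). The 21 points include the 3 doubted libraries, and 9458 genes were compared.

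Other genes of the same pathway were read from lists of 36 further JAK-STAT genes and 11 further LIF-STAT3 targets. Of the 36, 26 passed the filter on low counts, and the ligands Lif and Il6 had 5 and 0 reads in all 21 libraries together. Over the cultured groups 3 of the 26 differed, namely Il6ra (adjusted p = 0.00131), Ptpn11 (adjusted p = 0.0231) and Cish (adjusted p = 0.0374, edgeR). Of the 11 targets 10 were tested and 2 differed, Sgk1 (adjusted p = 0.0305) and Ier3 (adjusted p = 0.0312), beside 13.1% of all genes.

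Il6ra, the gene of the receptor chain that binds interleukin-6, was lowest in LIF HP, as Lifr was. It was at 7.73, 4.93 and 10.3 CPM there and at 38, 20.6 and 6.25 CPM in LIF LP. In CH+LIF HP it was at 39.6, 53 and 52.5 CPM and in 2i+LIF HP at 40.4, 40.9 and 44.1 CPM, with no overlap with LIF HP. For Il6ra, the log2 difference of LIF HP from 2i+LIF HP was -2.47 (SE 0.54, adjusted p = 0.0102, edgeR, where 3.78% of genes passed) and that from CH+LIF HP was -2.69 (SE 0.54, adjusted p = 0.012, where 1.47% passed). The first was lost without LIF HP replicate 2 (-2.25, adjusted p = 0.0799), and the second without replicate 2 (-2.46, adjusted p = 0.0988) or 1 (-2.75, adjusted p = 0.0503). The highest group was 2i+LIF LP, at 88.4, 83.5 and 76.6 CPM.

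Cish, another cytokine-induced inhibitor of the SOCS family, was near the limit of detection, with 26 reads in CH+LIF LP (12, 13 and 1), 24 in LIF LP (4, 12 and 8) and 0 in CH+LIF HP. A count of 0 allows up to 3 reads in a library. Leaving out any 1 of 12 libraries ended the Cish call (PO 3, CH+LIF LP 1 or 2, LIF LP 2 or 3, 2i+LIF HP 1 or 3, any CH+LIF HP, LIF HP 2 or 3), with adjusted p up to 0.0882. Ptpn11, which encodes the phosphatase SHP2, was highest in 2i+LIF LP replicate 1 at 129 CPM, and without that library its adjusted p was 0.112. Its call also ended without LIF HP replicate 2 (adjusted p = 0.0509) or 3 (adjusted p = 0.0583). Ier3, an immediate early gene, was at 45.1, 42.4 and 41.8 CPM in CH+LIF LP and at 10.2, 8.18 and 2.88 CPM in 2i+LIF HP, the group that was also lowest for Socs3. Its call ended without any 1 CH+LIF LP library, 2i+LIF HP replicate 2 or 3, or LIF HP replicate 2 (adjusted p up to 0.0845). Sgk1, which encodes a serum- and glucocorticoid-regulated kinase, rose by 1.27 on the log2 scale from LIF LP (49.6, 60.4 and 59.6 CPM) to LIF HP (87.6, 216 and 104 CPM, SE 0.37, adjusted p = 0.0308, edgeR). Without LIF HP replicate 2 it was 0.73 (adjusted p = 0.297), and leaving out LIF HP replicate 3 (adjusted p = 0.0561) or any 1 LIF LP library (adjusted p = 0.0725 to 0.134) ended it too. Its call over the cultured groups ended without CH+LIF LP 2 or 3, any LIF LP library, 2i+LIF HP 2 or 3, or LIF HP 2 (adjusted p up to 0.0766, edgeR).

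**Figure D4:**
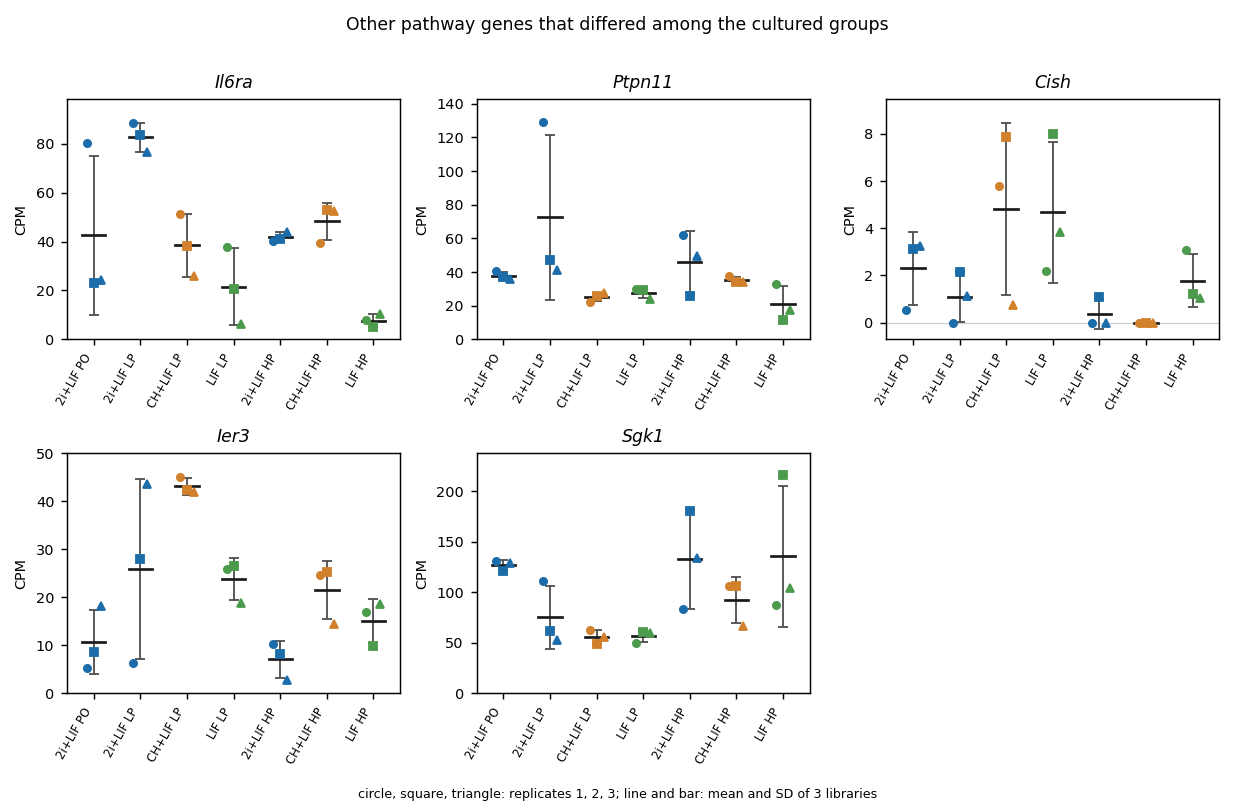
Level in CPM (vertical axis, linear) of the 5 further pathway genes that passed over the cultured groups, in the 7 groups (horizontal axis), drawn as for the members (points are libraries, line and bar the mean and SD of 3). Il6ra lies below 11 CPM in all 3 LIF HP libraries, and Cish is at 0 in all 3 CH+LIF HP libraries.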

How the data were processed

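An mRNA sequencing service made 21 libraries, in 7 groups of 3, from column-purified total RNA, per the labels' protocols. The authors deposited whole-number read counts per Ensembl gene for each library. The submitters' processing notes name bcl2fastq, STAR 2.6.0a, HTSeq and the mm10 build. The annotation, the strand setting and any filters are not given in the sources used here. The 5 closing entries of each table (reads not assigned to a gene) were left out of library sizes and tests, and genes held 47.4% to 62.0% of each table's reads.

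Gene names, positions and overlaps came from GENCODE M21 (GRCm38), which holds 31011 of the 31053 IDs. Counts were fitted with edgeR 4.0.16 in R 4.3.3 (TMM, filterByExpr, a coefficient for each of 7 groups, quasi-likelihood F test with 14 residual degrees of freedom), and p-values were adjusted by Benjamini-Hochberg over the 10643 genes tested, with a threshold of 0.05. Of 21 pairwise contrasts, 15 within a passage, within a medium or against PO were the main ones, and the other 6 served only to compare neighbours in the order of group means. Libraries held 1132126 to 3783043 gene reads. SDs are over the 3 libraries of a group, and 95% intervals come from the fit. Similarity to other genes used log2 CPM with a prior count of 2 and genes with a mean of at least 5 CPM. The 9 genes and the lists were chosen with earlier results of these data known. All 9 genes were named. A listed pathway gene was named where it passed over the cultured groups, and Lif and Il6 were named in addition, after their counts were seen. Alternatives were DESeq2 1.42.0 and its size factors, no filter, a replicate block, fits of only the groups compared, removal of mitochondrial genes and Gm42418, and leaving out libraries. Leaving out 3 libraries and limma 3.58.1 (voom with sample quality weights) were chosen after seeing the data. Same-numbered replicates deviated together (all 3 correlations over 0.1) in 1 of the 15 contrasts, so the numbers were not taken to pair the samples.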

Additional observations from a re-analysis of the deposited data

How the results depend on the processing

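The single results followed were the tests over the groups, and contrasts and differences in change picked from these data. Members entered with an unadjusted p under 0.05, no overlap or a call under any setting, and pathway genes where called. Of 90 single results, 25 passed, and 22 of these were lost under at least 1 of 30 other settings, while 37 that did not pass were gained under at least 1. Since a gain was itself a ground for entry, the 37 do not measure how often results are gained. The direction turned for 2, both of Lifr. In LIF LP against PO (-0.13) it was 1.24 with 2 libraries (PO replicate 1 and 2i+LIF LP replicate 1) left out, 1.24 with 3 left out (2i+LIF HP replicate 3 added), 1.04 in limma-voom with quality weights and 0.08 with a replicate block, and -0.56 to 1.24 leaving out 1 library at a time. In 2i+LIF LP against PO (-0.36) it was 1.20, 1.20 and 0.97 under the first 3 of these, and -0.79 to 1.01 leaving out 1 library, with the positive value without PO replicate 1 in both. The 3 that passed under every setting that gave a value were Socs3 in 2i+LIF HP against PO, Il6ra over the cultured groups and Il6ra in LIF HP against PO. Of the 9 genes, 3 passed over the 7 groups, against 5 without the filter on low counts, 5 with 2 libraries left out, 5 with 3 left out and 7 in limma-voom. The share of all genes that passed this test went from 22.6% to 19.5%, 35.7%, 35.2% and 51% in the same order. Over the cultured groups 3 passed, against 5 with 3 libraries left out and 6 in limma-voom, while the share over all genes went from 13.1% to 23.7% and 24.9%. The 7 calls over the 15 contrasts became 16 without the filter, 24 with 2 libraries out, 26 with 3 out and 29 in limma-voom, while the share of calls over all genes went from 5.03% to 3.95%, 9.4%, 9.55% and 13.2%. The 0 calls for a difference in LP to HP change between media became 1 without the filter, 1 with 2 libraries out, 1 with 3 out, 2 with only the groups compared fitted and 2 in limma-voom. The share over all genes went from 0.197% to 0.66% without the filter, 1.69% with 2 out, 2.08% with 3 out and 3.42% in limma-voom. That for only the groups compared is not given. Leaving out 1 library at a time gave 1 to 4 calls over the 7 groups, 0 to 4 over the cultured groups, 4 to 15 over the contrasts and 0 to 1 for the difference in change. The most, 15, came without 2i+LIF LP replicate 1, and the fewest, 4, without 2i+LIF HP replicate 2 or LIF HP replicate 2. With the replicate number as a block there were again 3, 3, 7 and 0 calls. Of the 7 contrast calls for the members, each except Socs3 was lost without at least 1 single library, and 3 libraries a group with 1132126 reads or more limit what could be called.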
